A study of Ananas comosus with 78 samples.

Results

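The stem apex of field-grown pineapple (Ananas comosus) was compared on day 2 between plants that had received ethephon and plants that had received water. The members are the libraries whose labels give stem apex, the treatment and sampling d.a.t. 3, which is day 2 after treatment in the study's own count of days, and they are 6 of the 78 libraries of the series. In the control group, 10 ml of water was placed in the plant centre, and in the treated group 50 mg of ethephon in the same volume, so that the volume and the handling were common to both groups. Each group had 3 libraries, and each library came from the pooled apices of 3 plants. Per the study, the field was split into 3 replications that each held both treatments, but the labels do not say that a library number marks a replication. The cultivar, PRI 73-50, is written as MD1 in the sample labels and as MD2 in the series text. The plants grew on a commercial field and were not grown in a controlled room, and leaf primordia remained on the excised apex, so the tissue was not meristem alone. The other samplings used here for comparison are the apex on day 1 and day 3 and the base of the most recently matured leaf, the "D" leaf, on day 2, each with 3 water and 3 ethephon libraries of its own.

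Ethephon breaks down inside plant tissue and releases ethylene, the gaseous hormone that is used commercially to force pineapple into flower. Ethylene is made from 1-aminocyclopropane-1-carboxylic acid (ACC) by ACC synthase and then ACC oxidase, binds receptors that act through the CTR1 kinase, and reaches the nucleus through EIN2 and the EIN3/EIL transcription factors, which in turn act on ethylene-responsive transcription factors (ERTFs) of the AP2 family. At a shoot apex that turns floral, work in model plants such as Arabidopsis places FLOWERING LOCUS T, CONSTANS and SOC1 among the regulators of flowering time, and LEAFY, the APETALA1/FRUITFULL group of MADS-box genes and the SQUAMOSA promoter-binding proteins among the regulators of floral meristem identity. Gene roles below are those that the study's annotation gives, with the function known from model plants. No sequence is printed.

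Counts per library ranged from 3303305 to 3337522 in the water group and from 3792883 to 7076159 in the ethephon group, against a median of 5364715.5 over all 78 libraries. The first principal component of the 500 most variable genes, with 74.9% of the variance, separated the 3 water libraries from the 3 ethephon libraries. The 3 water libraries were sequenced on 1 lane and the 3 ethephon libraries on 3 other lanes, and no lane held both groups, so lane and treatment cannot be told apart. Of the apex markers, the KNOTTED-1-like gene Aco015873 was the most abundant. It stood at 54.2 to 241 CPM (read counts scaled to a common library total with TMM factors) over the 6 libraries. The KNOTTED-1-like gene Aco004983 stood at 3.54 to 13.7 CPM. The WUSCHEL homologs Aco006233 and Aco015382 were also low, and Aco015382 held 5 counts in the water libraries together. Of 216 genes that were at least 16-fold higher in leaf base than in apex among the water controls, 10 had no count in any of the 6 libraries. The summed level of all 216 was 641.5 to 739.9 CPM in the water libraries and 758.7 to 1322 CPM in the ethephon libraries. Of these genes 206 were tested, of which 30 were up-regulated and 4 down-regulated, with a median log2 fold change of 0.48. Over all genes tested, 9.76% were up-regulated and 5.34% down-regulated. The part of the leaf base genes in the results below was not tested. The 66 genes that were apex-enriched by the same measure summed to between 16500 and 17400 CPM in water and between 16540 and 19850 CPM after ethephon. All 66 were tested, and 17 were up-regulated and 16 down-regulated, with a median log2 fold change of 0.28. Their sum thus does not show that single apex-enriched genes were unchanged.

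At the apex on day 2, 3231 genes differed between ethephon and water, which is 15.1% of the 21388 genes with a count in at least 1 of the 6 libraries. A gene was called differentially expressed (DE) where the Benjamini-Hochberg adjusted p of edgeR's quasi-likelihood test was under 0.05 and the log2 fold change was at least 1 in size. Up-regulated genes numbered 2088 (9.76% of those tested) and down-regulated genes 1143 (5.34%). The median fold increase among the up-regulated genes was 2.7, with quartiles of 2.28 and 3.47, and their median level went from 8.33 to 24.7 CPM. Among the down-regulated genes the median decrease was 2.48-fold, with quartiles of 2.2 and 3.16, and the median level went from 16.4 to 6.05 CPM. The fold medians and quartiles leave out 156 up-regulated and 103 down-regulated genes. Each of these held at most 3 counts in every library of 1 or both groups. Among the rest, 316 up-regulated and 134 down-regulated genes changed at least 4-fold, and 3 and 5 at least 16-fold. Folds here are fitted values. Of the genes left out, 41 up-regulated and 26 down-regulated ones had no count in 1 group, so their folds depend on the prior count. In a bulk sample, more cells of a type and more RNA per cell cannot be told apart.

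**Figure D1:**
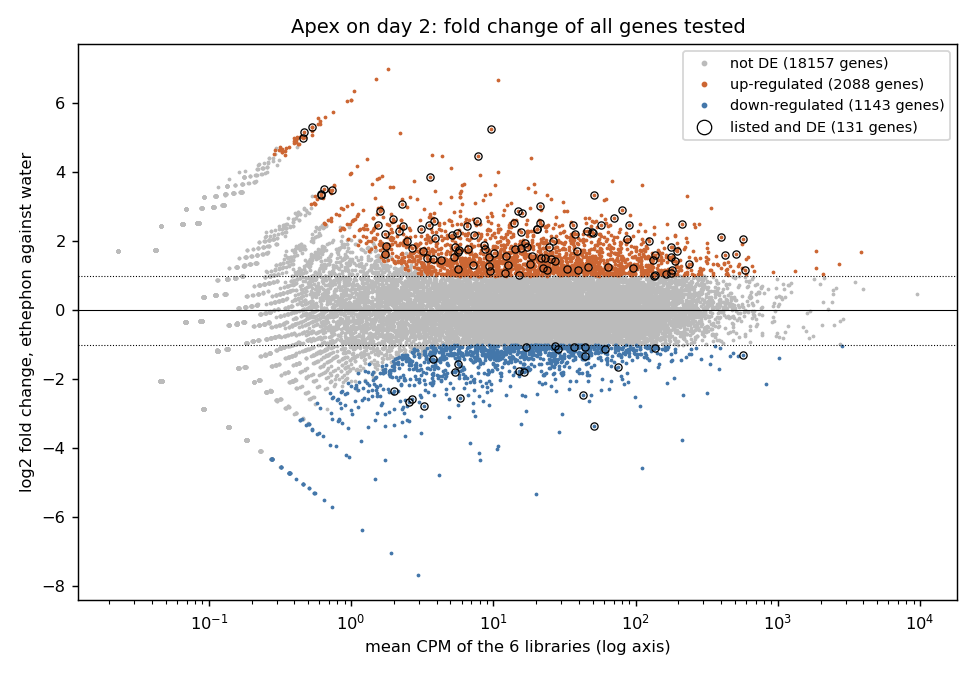
Fold change against level for the genes tested at the apex on day 2; each point is a gene, the x axis is its mean level in CPM on a log scale and the y axis its log2 fold change, ethephon over water. The 2088 up-regulated and 1143 down-regulated genes are coloured. Circles mark the 131 DE genes of the lists drawn up here from genes the study names, most of which lie above 0.

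The split between directions depended on scaling. With TMM scaling 64.6% of the DE genes were up-regulated, and with library size alone 51.8% of 3286 were, because that scaling shifted the median log2 fold change of all genes from 0.01 to -0.11. Without the fold limit 8061 genes passed the adjusted p alone. The libraries of the groups did not overlap in CPM for 10108 genes (47.3% of those tested). Replacing the 3 water libraries of day 2 by the 6 water libraries of days 1 and 3 gave 2456 DE genes, of which 1692 were DE with the day 2 controls too (52.4% of the day 2 calls and 68.9% of the others).

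From the genes that the study names, 290 were grouped here by function, and 288 of them were tested. Of these, 109 were up-regulated and 22 down-regulated, with a median log2 fold change of 0.85 against 0.01 over all genes tested. These genes were singled out by the study from these same libraries, so their counts, set beside the background shares of 9.76% and 5.34%, are not independent evidence of a direction. The lists with the highest share of up-regulated members were growth-regulating factors, LEA and nodulin genes, organ boundary and shape genes, stress genes and protein turnover genes. Ethylene perception had no DE gene, and chromatin genes had 1 up-regulated and 1 down-regulated of 17.

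**Figure D2:**
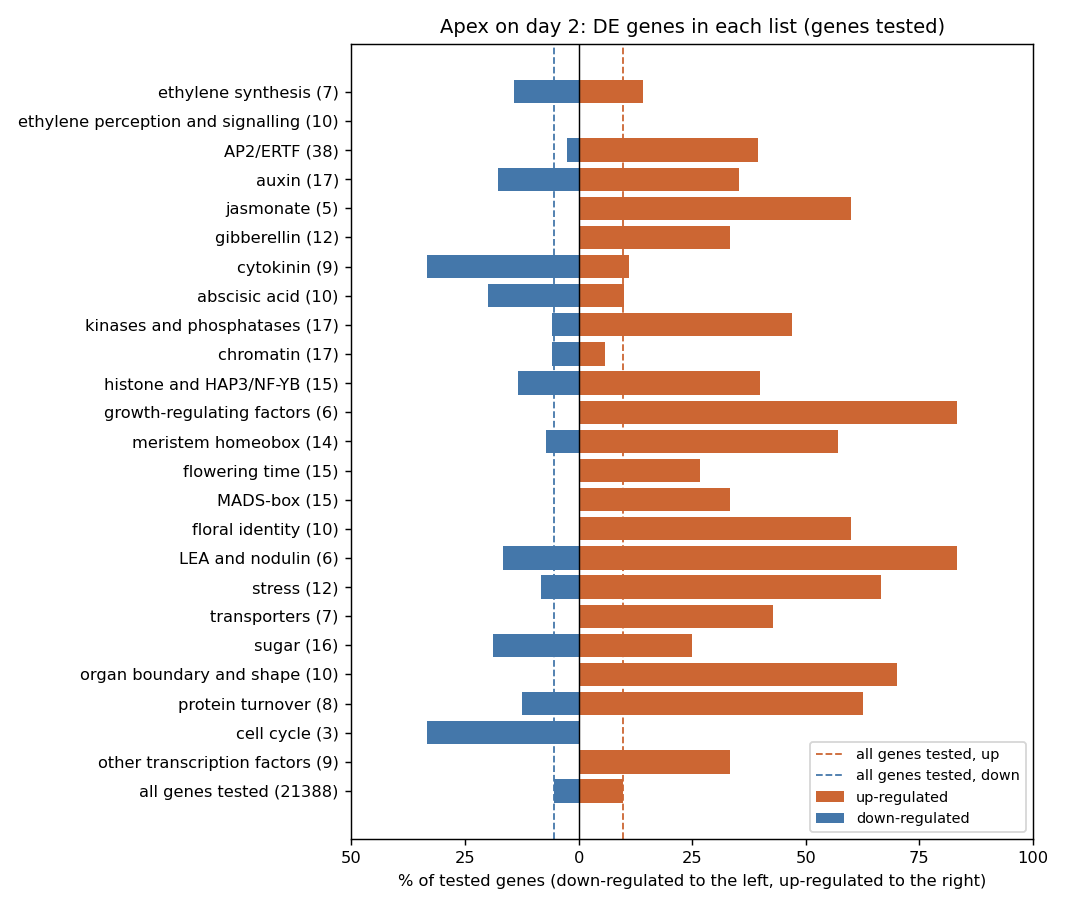
Percentage of tested genes that were up-regulated (bars to the right) and down-regulated (bars to the left) in each gene list at the apex on day 2. The vertical lines give the percentages over all genes tested, 9.76% up and 5.34% down; 23 of the 24 lists had at least 1 DE gene, and ethylene perception had none.

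Of the 15 MADS-box genes listed, which include the FRUITFULL and APETALA1 group, 5 were up-regulated and none down-regulated, with a median log2 fold change of 0.47. Aco012428, a FRUITFULL homolog at linkage group 1 from 2127109 to 2132551 in the Acomosus_321_v3 build, stood at 0, 1.12 and 0.277 CPM in the water libraries and 18.4, 11.7 and 25.9 CPM in the ethephon libraries. The lowest ethephon library was more than 10 times the highest water library, and the gene passed the test (adjusted p = 1.0e-07, n = 3 per group). The water libraries together held 5 counts, so the pooled ratio of 37.2 (95% exact counting interval 15.7 to 115.5) is given in place of a fitted fold. A second FRUITFULL homolog, Aco004839 (linkage group 7 from 217862 to 228880), was at 0.545, 0.838 and 0.554 CPM in the water libraries and 15, 6.38 and 23.9 CPM in the ethephon libraries. For the same reason its difference is given as a pooled ratio, 20.4 (95% exact counting interval 9.73 to 51.4), and reads of a gene overlapping its exons could have been counted with it. Aco019039, a homolog of the floral meristem gene CAULIFLOWER, was at 3.27, 4.47 and 6.37 CPM in the water libraries and 52.6, 15.7 and 45.9 CPM in the ethephon libraries, and Aco030656, annotated as AGAMOUS-like 31, at 7.90, 5.87 and 6.37 CPM in the water libraries and 44.4, 19.4 and 38.5 CPM in the ethephon libraries. Neither gene overlapped between groups, and their log2 fold changes were 3.01 ± 0.38 and 2.34 ± 0.28 (± SE, n = 3 per group, adjusted p = 2.3e-06 and 1.4e-06). In all 4 of these genes ethephon replicate 2, the most deeply sequenced library, was the lowest of the ethephon libraries. The fifth up-regulated gene, AGAMOUS-like 14 Aco015104, named after its values were seen, had a log2 fold change of 1.41 ± 0.18.

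SOC1 and SVP homologs, which in Arabidopsis promote and repress flowering, did not pass the limits. The 5 SOC1 homologs had log2 fold changes from -0.45 (Aco030142) to 0.87 (Aco015492), and the 3 SVP homologs from -0.26 (Aco002729) to 0.02 (Aco027879). Aco015492 had an adjusted p of 6.7e-05 but less than a 2-fold difference.

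Of 10 listed regulators of floral identity 6 were up-regulated and none down-regulated, with a median log2 fold change of 1.17. LEAFY, which in Arabidopsis switches on the floral identity genes, has 2 listed homologs. Aco019059 was at 0, 0.559 and 0.831 CPM in the water libraries and 2.49, 2.77 and 2.56 CPM in the ethephon libraries, a pooled ratio of 5.75 (95% exact counting interval 2.27 to 18.6), and Aco019058 at 4.91, 5.87 and 5.54 CPM in the water libraries and 14.2, 11.9 and 13.1 CPM in the ethephon libraries. No water library of either gene reached the lowest ethephon library, and the log2 fold change of Aco019058, named after its values were seen, was 1.28 ± 0.25 (adjusted p = 3.3e-04). The SQUAMOSA promoter-binding-like gene Aco008265 was at 1.91, 0.838 and 3.88 CPM in the water libraries and 12.2, 14.1 and 12.8 CPM in the ethephon libraries, with no overlap and a log2 fold change of 2.58 ± 0.35 (adjusted p = 6.0e-06). STERILE APETALA, an F-box protein of flower development in Arabidopsis, was represented by Aco002301 at 1.91, 0.838 and 1.66 CPM in the water libraries and 8.22, 5.69 and 4.87 CPM in the ethephon libraries, a log2 fold change of 2.08 ± 0.41. The NAC domain gene Aco000744 was at 4.91, 10.9 and 6.09 CPM in the water libraries and 20.9, 12.8 and 20.3 CPM in the ethephon libraries, with a log2 fold change of 1.30 ± 0.28 and an ethephon replicate 2 not far above water replicate 2. UNUSUAL FLORAL ORGANS (Aco008339) stayed at or under 1.25 CPM in all 6 libraries and was not called, and the AP2-like gene Aco006706 had a log2 fold change of -0.23 ± 0.18 (adjusted p = 0.34).

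**Figure D3:**
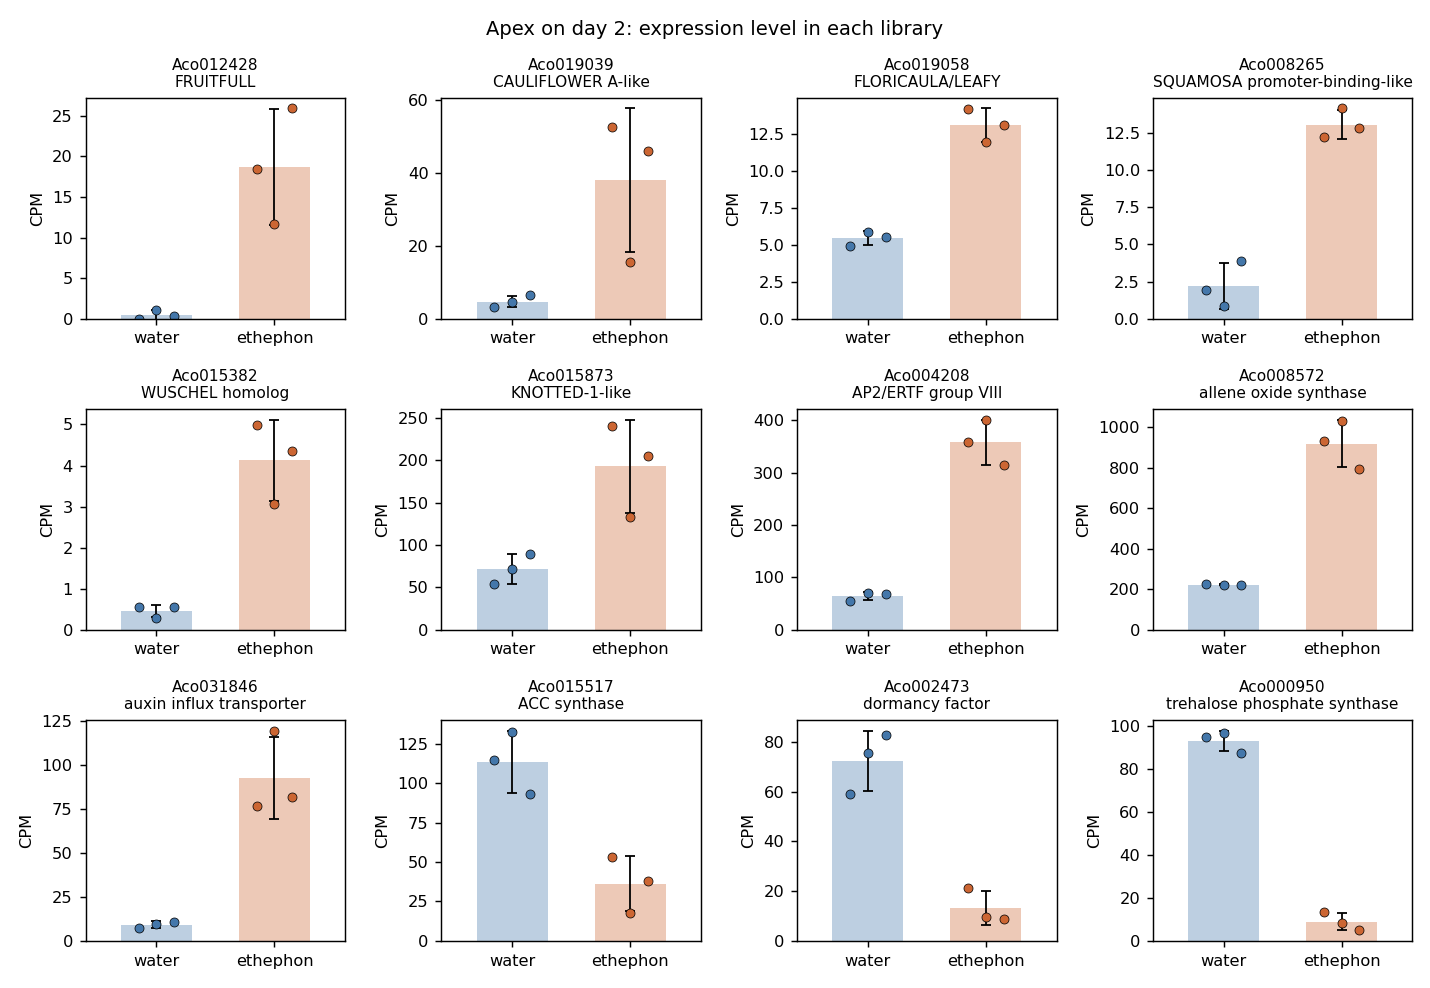
Level of 12 genes in each of the 6 libraries, in CPM on linear axes, with water libraries and ethephon libraries side by side; points are libraries, bars the mean and error bars the SD of 3 libraries. Aco012428 stood at 0 to 1.12 CPM in water and 11.7 to 25.9 CPM after ethephon, while the trehalose phosphate synthase gene Aco000950 went the other way, from 87.5 to 96.4 CPM down to 5.13 to 13.2 CPM.

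Of 17 listed flowering-time genes, which act upstream of these, 15 were tested, 4 were up-regulated and none down-regulated. The FLOWERING LOCUS T homologs Aco010683 and Aco010684, mobile flowering signals in other plants, had no count in the 6 libraries, which allows a level of up to 0.838 CPM in a water library and 0.769 CPM in an ethephon library (a limit of 3 counts, counting error only). The CONSTANS-like gene Aco006513 stood at 10.4, 11.7 and 18.3 CPM in the water libraries and 64.3, 61.4 and 57.5 CPM in the ethephon libraries. All 3 ethephon libraries were more than 3 times the highest water library, with a log2 fold change of 2.2 ± 0.18 (adjusted p = 9.4e-09), although its exons overlap another gene and strand was not used in counting. A lower CONSTANS-like gene, Aco026137, was at 0.273, 0.838 and 0.554 CPM in the water libraries and 2.99, 5.41 and 1.80 CPM in the ethephon libraries, a pooled ratio of 6.94 (95% exact counting interval 3.00 to 19.7). The bZIP gene Aco009751 and the FRIGIDA-like gene Aco015042 had log2 fold changes of 1.5 ± 0.18 and 1.24 ± 0.16 (adjusted p = 1.5e-06 and 2.5e-06). Aco009751 was no longer called with the water libraries of days 1 and 3 as controls (log2 fold change 0.97, adjusted p = 0.0011). Aco015042 was no longer called with the water libraries of days 1 and 3 as controls (log2 fold change 0.62, adjusted p = 0.003). The clock gene homolog Aco014347 (GIGANTEA-like), named after its values were seen, was at 193, 172 and 172 CPM in the water libraries and 97.5, 105 and 94.1 CPM in the ethephon libraries. The groups did not overlap, but the log2 fold change of -0.83 ± 0.11 missed the 2-fold limit. TERMINAL FLOWER homologs Aco031443 and Aco016718, repressors of flowering in Arabidopsis, had no count in the water libraries and at most 0.769 CPM after ethephon, too little for a fold.

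Most of the listed homeobox genes of the shoot meristem were up-regulated. KNOTTED-1-like genes keep meristem cells undifferentiated and WUSCHEL maintains stem cells in Arabidopsis, while the related WOX and HD-Zip genes act in organ growth and polarity. Of the 14 listed genes 8 were up-regulated and 1 was down-regulated, with a median log2 fold change of 1.24. Aco015873, KNOTTED-1-like, was at 54.2, 71.8 and 89.4 CPM in the water libraries and 241, 133 and 205 CPM in the ethephon libraries. Every ethephon library lay above every water library, with a log2 fold change of 1.45 ± 0.19 (adjusted p = 3.5e-06). The second KNOTTED-1-like gene, Aco004983, had a log2 fold change of 0.97 ± 0.28, short of the limit. The WUSCHEL homolog Aco006233 was at 5.72, 2.79 and 3.32 CPM in the water libraries and 11.7, 11.7 and 17.2 CPM in the ethephon libraries, and the lower one, Aco015382, at 0.545, 0.279 and 0.554 CPM in the water libraries and 4.98, 3.05 and 4.36 CPM in the ethephon libraries. Neither overlapped between groups, and the log2 fold change of Aco006233 was 1.78 ± 0.30 (adjusted p = 8.2e-05) and the pooled ratio of Aco015382 8.47 (95% exact counting interval 3.43 to 27.1). Among WOX genes, Aco023084 was at 16.6, 15.1 and 15.2 CPM in the water libraries and 60.1, 80.7 and 86.7 CPM in the ethephon libraries, a log2 fold change of 2.30 ± 0.16 (adjusted p = 1.5e-09), and Aco012965 had a log2 fold change of 1.88 ± 0.32. The HD-Zip gene Aco002750 was at 9.81, 12 and 9.97 CPM in the water libraries and 47.4, 34.4 and 44.4 CPM in the ethephon libraries, a log2 fold change of 2.00 ± 0.19. One WOX gene fell: Aco008700, named after its values were seen, went from 179, 184 and 196 to 101.2, 68.0 and 88.2 CPM, with a log2 fold change of -1.10 ± 0.13. Aco008700 was no longer called with the water libraries of days 1 and 3 as controls (log2 fold change -0.98, adjusted p = 5.9e-05) and without ethephon replicate 2 (log2 fold change -0.96, adjusted p = 3.9e-06). The 3 TOPLESS-related corepressors had log2 fold changes between -0.37 (Aco018150) and 0.04 (Aco018149), and the CLAVATA3-related gene Aco026242 -0.14 ± 0.47, none of them called.

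Growth-regulating factors, which promote cell proliferation in young leaves and flowers, were up-regulated in 5 of 6 cases, with a median log2 fold change of 1.27. Aco023268 was the most changed, at 17.7, 17 and 19.4 CPM in the water libraries and 65.0, 122 and 60.3 CPM in the ethephon libraries. The lowest ethephon library was more than 3 times the highest water library, and its log2 fold change was 2.23 ± 0.22 (adjusted p = 8.3e-08). The log2 fold changes of Aco009479, Aco015755 and Aco017250 were 1.77 ± 0.36, 1.30 ± 0.32 and 1.24 ± 0.17. Aco004075, named after its values were seen, had a log2 fold change of 1.13 ± 0.29. In all 6 growth-regulating factors ethephon replicate 2 was the highest library. Aco017250 was no longer called with the water libraries of days 1 and 3 as controls (log2 fold change 0.70, adjusted p = 8.9e-04) and without ethephon replicate 2 (log2 fold change 0.96, adjusted p = 2.7e-05). Aco004075 lost its call under 4 of the 17 alternatives, among them the removal of water replicate 2 or ethephon replicate 2 (log2 fold change 0.73 to 0.95, adjusted p = 0.038 to 0.058) and the use of the water libraries of days 1 and 3 as controls (log2 fold change 0.91, adjusted p = 0.017). The sixth gene, Aco020046, had a log2 fold change of 0.90 ± 0.24.

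Genes of organ boundaries and organ shape rose in 7 of 10 cases with a median log2 fold change of 1.77, and none fell. OVATE proteins shape organs in tomato and Arabidopsis, and 5 of the 7 listed here were up-regulated. Aco018275 was at 0.545, 0.559 and 0.277 CPM in the water libraries and 6.23, 10.4 and 3.59 CPM in the ethephon libraries, a pooled ratio of 16.4 (95% exact counting interval 6.82 to 51.4), and Aco029040 at 1.91, 3.35 and 2.77 CPM in the water libraries and 13.2, 11.8 and 11 CPM in the ethephon libraries, a log2 fold change of 2.18 ± 0.30 (adjusted p = 6.6e-06). A low OVATE gene, Aco012538, had a pooled ratio of 3.59 (95% exact counting interval 1.66 to 8.88). Aco012538 lost its call under 5 of the 17 alternatives, among them the removal of water replicate 1, water replicate 2 or ethephon replicate 3 (adjusted p = 0.066 to 0.1). The light-dependent short hypocotyl gene Aco008960, of a family that marks organ boundaries in Arabidopsis and rice, was at 5.18, 8.94 and 5.26 CPM in the water libraries and 32.9, 40.6 and 35.4 CPM in the ethephon libraries. All 3 ethephon libraries were more than 3 times the highest water library, with a log2 fold change of 2.52 ± 0.22 (adjusted p = 2.0e-08).

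Genes of ethylene synthesis did not move in 1 direction. Of 7 listed genes, ACC synthase Aco015517 was down-regulated and ACC oxidase Aco001358 up-regulated, and the median log2 fold change was -0.42. Aco015517 (linkage group 3 from 12717867 to 12722309) stood at 114, 133 and 93.3 CPM in the water libraries and 53.1, 17.9 and 38.0 CPM in the ethephon libraries. Its highest ethephon library was well below its lowest water library, and the log2 fold change was -1.66 ± 0.24 (adjusted p = 1.3e-05). Aco001358 was at 86.1, 108 and 79.7 CPM in the water libraries and 207, 94.7 and 238 CPM in the ethephon libraries, so ethephon replicate 2 lay inside the water range. Its log2 fold change of 1.00 ± 0.22 was at the limit, and its exons overlap another gene. Aco001358 lost its call under 12 of the 17 alternatives, among them the removal of water replicate 1, water replicate 3, ethephon replicate 1 or ethephon replicate 3 (log2 fold change 0.72 to 0.96, adjusted p = 0.0044 to 0.046) and the use of the water libraries of days 1 and 3 as controls (log2 fold change -0.59, adjusted p = 0.067). The most abundant ACC oxidase, Aco015240, which was named after its values were seen, was at 676, 1086 and 769 CPM in the water libraries and 436, 469 and 399 CPM in the ethephon libraries. The groups did not overlap, and the log2 fold change of -0.93 ± 0.14 (adjusted p = 2.1e-05) missed the 2-fold limit. The other ACC synthases, Aco028694 and Aco000276, had log2 fold changes of 0.53 ± 0.14 and -0.26 ± 0.37.

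Ethylene perception and signalling held no DE gene among 10 tested, with a median log2 fold change of -0.23. By the step of the pathway, the smallest adjusted p belonged to the receptor Aco006353, at 105, 123 and 117 CPM in the water libraries and 79.8, 74.8 and 79.8 CPM in the ethephon libraries, a log2 fold change of -0.54 ± 0.12 (adjusted p = 9.3e-04). The CTR1 kinase Aco007771 had a log2 fold change of -0.29 ± 0.11 (adjusted p = 0.048), EIN2 Aco005120 -0.45 ± 0.12 (0.0053) and the EIN3/EIL factor Aco017871 -0.39 ± 0.11 (0.0072). All 4 were lower after ethephon by less than 2-fold. The most abundant receptor, Aco010452, was at 440.2, 443 and 447 CPM in the water libraries and 475, 448 and 570.2 CPM in the ethephon libraries, a log2 fold change of 0.19 ± 0.12 (adjusted p = 0.21).

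Of 38 AP2/ERTF genes, 15 were up-regulated and 1 was down-regulated, with a median log2 fold change of 1.25. The 4 up-regulated genes with the largest fold changes belonged to groups I and VIII of the Arabidopsis classification. Aco010545 (group VIII) was at 15, 22.6 and 20.5 CPM in the water libraries and 192, 136 and 98.8 CPM in the ethephon libraries, a log2 fold change of 2.90 ± 0.20 (adjusted p = 1.3e-09). Aco004208 (group VIII, linkage group 15 from 683324 to 689862) was at 55.9, 69.6 and 69.2 CPM in the water libraries and 359, 401 and 314 CPM in the ethephon libraries. The spread within its groups was small beside the difference between them, with a log2 fold change of 2.49 ± 0.13 (adjusted p = 3.8e-11). Aco001190 (group I) and Aco008323 (group VIII) had log2 fold changes of 2.47 ± 0.20 and 2.46 ± 0.17 (adjusted p = 6.9e-09 and 1.2e-09). The single down-regulated gene was Aco009511 of group VII, the group that responds to low oxygen in Arabidopsis. It stood at 718, 885 and 833 CPM in the water libraries and 435, 252 and 294 CPM in the ethephon libraries, with no overlap and a log2 fold change of -1.29 ± 0.16 (adjusted p = 1.4e-06). Aco009511 was no longer called with the water libraries of days 1 and 3 as controls (log2 fold change -0.93, adjusted p = 7.1e-04). Other group VII genes, Aco012157 and Aco021063, had log2 fold changes of -0.92 ± 0.12 and -0.65 ± 0.12, under the 2-fold limit. Aco001844 of this group had 0.54 ± 0.29 with overlapping groups (adjusted p = 0.15), and Aco002699 of the same group was called up-regulated at levels of 0.273, 0.559 and 1.94 CPM in the water libraries and 7.98, 0.694 and 3.33 CPM in the ethephon libraries. These genes outside the largest 4 were named after their values were seen.

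Auxin genes moved in both directions. Of 17 listed, 6 were up-regulated and 3 down-regulated, with a median log2 fold change of 0.48. Auxin influx transporters, which carry auxin into cells and are annotated here as ABCG proteins, were all 3 up-regulated. Aco031846 was at 7.36, 9.78 and 10.8 CPM in the water libraries and 76.8, 119.7 and 82.1 CPM in the ethephon libraries, so that every ethephon library was at least 7 times every water library, and its log2 fold change was 3.35 ± 0.19 (adjusted p = 1.5e-10). Aco030876 was at 23.4, 29.1 and 32.1 CPM in the water libraries and 135, 193 and 129 CPM in the ethephon libraries, a log2 fold change of 2.46 ± 0.16. Multi-mapping reads were counted, so reads shared among these related transporters could have entered more than 1 of them. A SAUR-like gene, Aco026644, rested on few counts, with a pooled ratio of 13.7 (95% exact counting interval 2.17 to 567). Aco026644 lost its call under 6 of the 16 alternatives, among them the removal of water replicate 2, water replicate 3 or ethephon replicate 2 (adjusted p = 0.089 to 0.11) and the use of the water libraries of days 1 and 3 as controls (adjusted p = 0.14). Among the 3 down-regulated genes were the auxin response genes Aco011198, which went from 7.09, 13.4 and 9.41 to 1.74, 1.66 and 1.54 CPM (log2 fold change -2.55 ± 0.35), and Aco012274 (log2 fold change -1.57 ± 0.32). The third, the auxin-associated dormancy gene Aco002473, was named with Aco012274 after the values were seen. It was at 59.1, 75.4 and 82.8 CPM in the water libraries and 21.2, 9.71 and 8.98 CPM in the ethephon libraries, a log2 fold change of -2.46 ± 0.23 (adjusted p = 4.9e-08), and its exons overlap another gene. Of the genes listed here as auxin response factors, neither Aco009671 (log2 fold change 0.90 ± 0.33) nor Aco009779 (0.58 ± 0.25) was called. The study names Aco011198, down-regulated here, as an auxin response gene in one place and as an auxin response factor in another. The GH3 gene Aco005530 (-0.41 ± 0.13), whose family conjugates auxin, was not called.

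Jasmonate genes rose in 3 of 5 cases, with a median log2 fold change of 1.53. Allene oxide synthase Aco008572, an early enzyme of jasmonate synthesis, was at 226, 219.9 and 222 CPM in the water libraries and 933, 1029.9 and 795 CPM in the ethephon libraries. The water libraries were nearly equal and every ethephon library was more than 3 times as high, with a log2 fold change of 2.07 ± 0.12 (adjusted p = 1.2e-10). Of the repressors of jasmonate signalling, 1 of the pair of NINJA homologs and the TIFY gene rose: the NINJA homolog Aco012414 was at 64.3, 64.0 and 80.3 CPM in the water libraries and 238, 174 and 205 CPM in the ethephon libraries and the TIFY gene Aco009689 at 92.1, 86.9 and 98.6 CPM in the water libraries and 241, 292 and 253 CPM in the ethephon libraries. Their log2 fold changes were 1.59 ± 0.14 and 1.53 ± 0.12 (adjusted p = 2.0e-08 and 3.9e-09). The other NINJA homolog, Aco003903, was not called, at -0.12 ± 0.16 with overlapping groups (adjusted p = 0.56), and neither was the receptor homolog Aco001397, at 0.25 ± 0.13.

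Of 12 gibberellin genes, 4 were up-regulated and none down-regulated, all of them DELLA or GRAS genes. The DELLA gene Aco005453, of a family that represses gibberellin responses, was at 2.73, 3.07 and 2.21 CPM in the water libraries and 10.7, 9.99 and 5.90 CPM in the ethephon libraries, a log2 fold change of 1.76 ± 0.33 (adjusted p = 2.6e-04), and the GRAS gene Aco005454 at 18.0, 20.7 and 16.9 CPM in the water libraries and 60.3, 65.1 and 51.8 CPM in the ethephon libraries, a log2 fold change of 1.70 ± 0.15. The GRAS gene Aco031731 had no count in water and was at least 1.11-fold higher after ethephon, measured against the level that 3 counts in a water library would give, and Aco002115 had a pooled ratio of 15.8 (95% exact counting interval 2.55 to 652). Aco031731 lost its call under 3 of the 15 alternatives, among them the removal of water replicate 1 or ethephon replicate 2 (adjusted p = 0.051 to 0.084) and the use of the water libraries of days 1 and 3 as controls (adjusted p = 0.052). Aco002115 lost its call under 6 of the 16 alternatives, among them the removal of water replicate 1, water replicate 2, water replicate 3 or ethephon replicate 2 (adjusted p = 0.052 to 0.23). No gene of gibberellin synthesis, inactivation or reception was called. The GA20-oxidase Aco009790 had a log2 fold change of -1.29 ± 0.58 (adjusted p = 0.088), the GA2-oxidase Aco007347 0.48 ± 0.16 (adjusted p = 0.019), and the GA-regulated protein Aco000979 -0.14 ± 0.15. The GID1 receptor homolog Aco003526 had no count in water and 2 libraries with a few counts after ethephon, too little for a fold.

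Of 9 cytokinin genes 3 were down-regulated and 1 was up-regulated. Cytokinin oxidase breaks cytokinins down, and Aco023264 went from 4.91, 9.78 and 2.49 CPM in water to 0.748, 0.832 and 0.769 CPM after ethephon. The ethephon libraries were nearly equal and all below the lowest water library, with a log2 fold change of -2.79 ± 0.53 (adjusted p = 2.8e-04). The response regulators Aco010350 and Aco002961 had log2 fold changes of -1.40 ± 0.49 and -1.03 ± 0.17. Aco010350 lost its call under 6 of the 17 alternatives, among them the removal of water replicate 1, water replicate 2, water replicate 3 or ethephon replicate 2 (log2 fold change -1.55 to -0.86, adjusted p = 0.06 to 0.21). Aco002961 lost its call under 4 of the 17 alternatives, among them the removal of water replicate 2 or ethephon replicate 1 (log2 fold change -0.98 to -0.95, adjusted p = 1.2e-04 to 0.0014) and the use of the water libraries of days 1 and 3 as controls (log2 fold change -0.70, adjusted p = 0.0015). Isopentenyl transferase, which makes cytokinins, was represented by Aco006715 at 6.27, 14 and 10.2 CPM in the water libraries and 21.9, 21.2 and 17.4 CPM in the ethephon libraries, a log2 fold change of 1.02 ± 0.24. Aco006715 lost its call under 9 of the 17 alternatives, among them the removal of water replicate 1, ethephon replicate 1 or ethephon replicate 2 (log2 fold change 0.77 to 0.97, adjusted p = 0.005 to 0.028) and the use of the water libraries of days 1 and 3 as controls (log2 fold change 0.52, adjusted p = 0.1). The LONELY GUY homologs, which activate cytokinins, were not called (Aco017730, log2 fold change -0.48 ± 0.31).

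Of 10 abscisic acid genes 1 was up-regulated and 2 were down-regulated, and all 3 encode PYR1-type receptors. Aco007083 was at 3.82, 5.31 and 5.81 CPM in the water libraries and 16.4, 17.2 and 12.6 CPM in the ethephon libraries, a log2 fold change of 1.66 ± 0.26 (adjusted p = 2.8e-05). Aco005513 was at 38.4, 40.8 and 39.0 CPM in the water libraries and 20.2, 23.0 and 8.72 CPM in the ethephon libraries and Aco004375 at 19.4, 24.3 and 26.0 CPM in the water libraries and 13.5, 11.4 and 7.69 CPM in the ethephon libraries, with log2 fold changes of -1.13 ± 0.22 and -1.07 ± 0.22. Aco005513 was no longer called with the water libraries of days 1 and 3 as controls (log2 fold change -0.94, adjusted p = 0.0038) and without ethephon replicate 3 (log2 fold change -0.85, adjusted p = 5.5e-04). Aco004375 lost its call under 4 of the 17 alternatives, among them the removal of water replicate 3 or ethephon replicate 3 (log2 fold change -0.98 to -0.91, adjusted p = 0.0031 to 0.011) and the use of the water libraries of days 1 and 3 as controls (log2 fold change -0.52, adjusted p = 0.099). The binding factor Aco015030, the ripening protein Aco007857 and the GRAM domain protein Aco007675 were not called, with adjusted p of 0.23, 0.0067 and 0.4.

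Sugar genes included the largest decrease among the listed DE genes. Of 16 listed, 4 were up-regulated and 3 down-regulated. The trehalose phosphate synthase gene Aco000950 (linkage group 2 from 15413881 to 15418848), of an enzyme family that makes the sugar signal trehalose-6-phosphate, was at 94.8, 96.4 and 87.5 CPM in the water libraries and 13.2, 8.46 and 5.13 CPM in the ethephon libraries. The water libraries were close together and every ethephon library was far below them, with a log2 fold change of -3.36 ± 0.20 (adjusted p = 1.8e-10). The other trehalose phosphate synthase, Aco012107, was not called, at 0.39 ± 0.16. Hexokinase Aco000407 and acid invertase Aco017533, both named after their values were seen, had log2 fold changes of -1.80 ± 0.33 and -1.07 ± 0.23. Aco017533 was no longer called without ethephon replicate 2 (log2 fold change -0.78, adjusted p = 0.0054) and without ethephon replicate 3 (log2 fold change -0.99, adjusted p = 0.0048). Upward, the monosaccharide transporters Aco003836 and Aco010302 were at 0.545, 1.40 and 1.38 CPM in the water libraries and 5.48, 8.46 and 3.85 CPM in the ethephon libraries and at 1.64, 1.96 and 1.94 CPM in the water libraries and 8.72, 6.24 and 10.3 CPM in the ethephon libraries, respectively. Neither overlapped between groups, and their log2 fold changes were 2.46 ± 0.46 and 2.17 ± 0.36 (adjusted p = 2.2e-04 and 6.1e-05). The glucan endo-1,3-beta-glucosidase Aco002643, which opens callose, was at 3.00, 4.19 and 5.54 CPM in the water libraries and 23.2, 29.1 and 18.7 CPM in the ethephon libraries, a log2 fold change of 2.51 ± 0.26. Sucrose phosphate synthase Aco017378, named after its values were seen, was low, with a pooled ratio of 3.03 (95% exact counting interval 1.44 to 7.13). Aco017378 lost its call under 7 of the 17 alternatives, among them the removal of water replicate 1, water replicate 2 or ethephon replicate 3 (adjusted p = 0.13 to 0.16).

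Of 17 listed kinases and phosphatases 8 were up-regulated and 1 was down-regulated. The receptor-like kinases Aco021558 and Aco003500 were at 3.00, 4.75 and 4.43 CPM in the water libraries and 30.2, 36.5 and 17.4 CPM in the ethephon libraries and at 15, 18.2 and 18.6 CPM in the water libraries and 78.3, 104 and 62.3 CPM in the ethephon libraries, respectively. Their log2 fold changes were 2.82 ± 0.28 and 2.27 ± 0.18 (adjusted p = 1.5e-07 and 4.5e-09), and that of the protein kinase Aco005092, whose exons overlap another gene, was 2.87 ± 0.26. The acid phosphatase Aco001653 fell from 3.00, 5.31 and 1.66 CPM to 0.249, 0.277 and 1.54 CPM, a log2 fold change of -2.35 ± 0.67 that rests on 9 counts in the ethephon libraries together. Aco001653 was no longer called without water replicate 2 (log2 fold change -1.84, adjusted p = 0.1).

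Of the 15 genes listed as histones or HAP3/NF-YB factors, 6 were up-regulated and 2 down-regulated, while enzymes that modify chromatin mostly did not pass. Aco003152 was at 79.0, 81.9 and 77.5 CPM in the water libraries and 253, 332 and 249 CPM in the ethephon libraries, Aco001475 at 243, 241 and 276 CPM in the water libraries and 742, 876 and 685 CPM in the ethephon libraries, and the histone H1 gene Aco000204 at 234, 187 and 221 CPM in the water libraries and 506, 876 and 529 CPM in the ethephon libraries. In all 3 genes the lowest ethephon library was more than 2 times the highest water library, and the log2 fold changes were 1.83 ± 0.12, 1.62 ± 0.12 and 1.6 ± 0.16. Aco001050 had a log2 fold change of 1.43 ± 0.15. The 2 down-regulated genes, Aco012142 (-1.13 ± 0.13) and Aco018376 (-1.32 ± 0.19), were named after their values were seen. Aco012142 was no longer called with the water libraries of days 1 and 3 as controls (log2 fold change -0.57, adjusted p = 0.014). Aco018376 was no longer called with the water libraries of days 1 and 3 as controls (log2 fold change -0.22, adjusted p = 0.47). Among 17 chromatin genes the PHD finger gene Aco014382 rose, with a pooled ratio of 5.03 (95% exact counting interval 2.27 to 13.2), and the histone deacetylase Aco016700 fell, from 66.5, 59.2 and 53.7 CPM to 27.4, 24.4 and 33.9 CPM (-1.06 ± 0.15). Aco014382 lost its call under 3 of the 17 alternatives, among them the removal of water replicate 1, water replicate 2 or ethephon replicate 2 (adjusted p = 0.062 to 0.13). Aco016700 lost its call under 4 of the 17 alternatives, among them the removal of water replicate 1 or ethephon replicate 2 (log2 fold change -0.97 to -0.95, adjusted p = 8.6e-05 to 0.002) and the use of the water libraries of days 1 and 3 as controls (log2 fold change -0.88, adjusted p = 1.1e-04).

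Among 12 stress genes 8 were up-regulated and 1 was down-regulated, and among 6 LEA and nodulin genes 5 and 1. The calmodulin or EF-hand genes Aco000376 and Aco001760, of the calcium-binding type, were at 1.36, 0.559 and 1.38 CPM in the water libraries and 6.48, 7.91 and 5.13 CPM in the ethephon libraries and at 2.18, 2.79 and 1.11 CPM in the water libraries and 10.2, 9.71 and 13.3 CPM in the ethephon libraries, respectively. The log2 fold changes were 2.57 ± 0.42 and 2.45 ± 0.34 (adjusted p = 5.5e-05 and 8.6e-06). Aco000376 was no longer called in the joint fit of 78 libraries (log2 fold change 2.57, adjusted p = 0.14) and with the water libraries of days 1 and 3 as controls (log2 fold change -0.78, adjusted p = 0.37). Aco010143, annotated as proton gradient regulation 5, had no count in water and was at least 1.09-fold higher. Aco010143 lost its call under 6 of the 15 alternatives, among them the removal of water replicate 1, water replicate 2, water replicate 3 or ethephon replicate 3 (adjusted p = 0.078 to 0.12) and the use of the water libraries of days 1 and 3 as controls (adjusted p = 1). The stress-responsive gene Aco001681 fell from 3.27, 5.03 and 4.98 CPM to 1.25, 0.555 and 0.257 CPM, a log2 fold change of -2.66 ± 0.53. Aco001681 was no longer called in the joint fit of 78 libraries (log2 fold change -2.69, adjusted p = 0.13). LATE EMBRYOGENESIS ABUNDANT gene Aco002475, of a family that protects drying cells, was at 6.81, 8.38 and 4.98 CPM in the water libraries and 46.6, 22.7 and 32.6 CPM in the ethephon libraries, a log2 fold change of 2.34 ± 0.27, and the early nodulin-like gene Aco022294 had 1.93 ± 0.25. The other up-regulated members were Aco009627 and Aco007544, named after their values were seen (1.79 ± 0.45 and 1.48 ± 0.18), and the low Aco012577, a pooled ratio of 13.7 (95% exact counting interval 2.17 to 567). Aco009627 was no longer called with the water libraries of days 1 and 3 as controls (log2 fold change 1.06, adjusted p = 0.062). Aco012577 lost its call under 3 of the 16 alternatives, among them the removal of water replicate 1, water replicate 3 or ethephon replicate 3 (adjusted p = 0.081 to 0.093). The nodulin transporter Aco016031 fell, from 23.4, 29.6 and 24.1 CPM to 9.47, 6.10 and 6.67 CPM (-1.79 ± 0.22).

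Transporters, protein turnover genes and the remaining transcription factors were mostly low or moderate in level. Of 7 transporters 3 were up-regulated. The nitrate transporter Aco015264 was at 24.8, 26.8 and 21.3 CPM in the water libraries and 78.5, 26.6 and 59.3 CPM in the ethephon libraries, with ethephon replicate 2 inside the water range and a log2 fold change of 1.17 ± 0.26. Aco015264 was no longer called with the water libraries of days 1 and 3 as controls (log2 fold change 0.45, adjusted p = 0.21) and without ethephon replicate 1 (log2 fold change 0.78, adjusted p = 0.011). The MATE efflux gene Aco000270 had a pooled ratio of 5.92 (95% exact counting interval 2.84 to 14.3), and Aco009960 had no count in water and was at least 1.26-fold higher. Aco009960 was no longer called with the water libraries of days 1 and 3 as controls (adjusted p = 0.13). Of 8 protein turnover genes 5 were up-regulated and 1 was down-regulated. The RAB acceptor gene Aco001601, of membrane traffic, was at 18.3, 22.1 and 17.7 CPM in the water libraries and 117, 134 and 113 CPM in the ethephon libraries. The spread within groups was small, and its log2 fold change of 2.67 ± 0.14 had an adjusted p of 3.8e-11. The RING finger genes, of a type that often tags proteins for breakdown, included Aco022305 (2.36 ± 0.46), Aco018868 (2.24 ± 0.35), Aco012901 (pooled ratio 7.90 (95% exact counting interval 2.88 to 30.3)) and Aco026964 (pooled ratio 12.9 (95% exact counting interval 2.04 to 539)). Aco026964 lost its call under 5 of the 16 alternatives, among them the removal of water replicate 1, water replicate 3 or ethephon replicate 2 (adjusted p = 0.074 to 0.085). The BTB/POZ gene Aco018361 fell (-1.75 ± 0.22) and, like Aco018868, was named after its values were seen. Of the other transcription factors the GRAS gene Aco012050 was at 46.1, 45.8 and 58.4 CPM in the water libraries and 202, 224 and 172 CPM in the ethephon libraries, a log2 fold change of 2.02 ± 0.13, the MYB gene Aco031816 had 1.57 ± 0.24 and the bHLH gene Aco016415 1.18 ± 0.15. Aco016415 was no longer called with the water libraries of days 1 and 3 as controls (log2 fold change 0.67, adjusted p = 0.015) and without ethephon replicate 1 (log2 fold change 0.99, adjusted p = 5.5e-06).

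Of 3 cell cycle genes the SIAMESE-type inhibitor of cyclin-dependent kinases, Aco010247, was down-regulated. It was at 2.18, 4.47 and 7.20 CPM in the water libraries and 1.25, 0.555 and 0.513 CPM in the ethephon libraries, with every ethephon library below every water library and a log2 fold change of -2.58 ± 0.56 (adjusted p = 9.0e-04). The cyclin-dependent kinase G-2 gene Aco003499 had a log2 fold change of -0.71 ± 0.12.

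The smallest adjusted p in each direction among genes with no annotation in hand belonged to 4 genes at clear levels. Aco011762 (linkage group 8 from 11693777 to 11694571) was at 10.1, 12.6 and 13.8 CPM in the water libraries and 126, 104 and 108 CPM in the ethephon libraries, and Aco011617 (linkage group 6 from 127208 to 128945) at 71.7, 71.5 and 93.0 CPM in the water libraries and 519.9, 743 and 549 CPM in the ethephon libraries. Their log2 fold changes were 3.23 ± 0.16 and 2.96 ± 0.15 (adjusted p = 2.7e-11 and 3.1e-11). Downward, Aco010298 (linkage group 25 from 2235344 to 2238893) was at 189, 225 and 227 CPM in the water libraries and 14.7, 5.83 and 7.44 CPM in the ethephon libraries, and Aco018160 (linkage group 12 from 11215550 to 11216328) at 174, 218 and 174 CPM in the water libraries and 32.2, 21.9 and 28.2 CPM in the ethephon libraries. Their log2 fold changes were -4.56 ± 0.21 and -2.78 ± 0.15 (adjusted p = 2.4e-11 and 7.0e-11). Groups did not overlap in any of the 4 genes.

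The response on day 2 was compared with those of the neighbouring days, each measured against its own water controls. Of the 2088 genes up-regulated on day 2, 1063 were up-regulated on day 1 (50.9% of the day 2 genes and 63.2% of the 1682 of day 1) and 659 on day 3 (31.6%, and 42.2% of 1563). Of the 1143 down-regulated genes, 313 were down-regulated on day 1 (27.4%, and 39.5% of 793) and 367 on day 3 (32.1%, and 23.5% of 1560). Opposite calls were made on day 3 for 70 of the up-regulated genes and on day 1 for 17 of the down-regulated ones. The up-regulated genes that were not up-regulated at 6 h or on day 1 numbered 969, and the corresponding down-regulated genes 730. No apex sampling other than day 2 called 544 of the up-regulated and 426 of the down-regulated genes in the same direction.

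A test of the difference itself, an interaction term over the libraries of both days, found that the effect on day 2 differed from that on day 1 in 624 genes (2.77% of 22489; 229 higher, 1.02%, and 395 lower, 1.76%). Against day 3 it differed in 2460 genes (11% of 22296; 1707 higher, 7.66%, and 753 lower, 3.38%). Of the genes up-regulated on day 2, 127 had a higher effect than on day 1 and 714 a higher effect than on day 3, and 29 exceeded both. Of the down-regulated genes the corresponding counts were 181, 202 and 27. These genes were chosen by their day 2 effect, which enters the tested difference, so its direction was largely set by that choice. Against day 1, leaving out replicate 1 of every group moved the count of 624 genes to 1094.

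Among listed genes, Aco031846, the auxin influx transporter, had log2 fold changes of 2.18 ± 0.22 on day 1, 3.35 ± 0.19 on day 2 and 2.31 ± 0.27 on day 3, and the step from day 1 passed the test (1.14 ± 0.31, adjusted p = 0.026). The growth-regulating factor Aco023268 (1.03 ± 0.18, 2.23 ± 0.22 and 2.40 ± 0.16), the glucosidase Aco002643 and the boundary gene Aco008960 rose more on day 2 than on day 1 in the same way, with differences of 1.17 ± 0.30, 1.48 ± 0.41 and 1.22 ± 0.37. Trehalose phosphate synthase Aco000950 had log2 fold changes of -0.74 ± 0.26, -3.36 ± 0.20 and -5.54 ± 0.35 on days 1, 2 and 3, and its day 2 effect differed from that of either neighbour, while its water level fell by 1.33 from day 2 to day 3 on the log2 scale (adjusted p = 5.9e-05). ACC synthase Aco015517 followed the same order, at -0.63 ± 0.14, -1.66 ± 0.24 and -2.98 ± 0.26, and its water level fell by 2.40 from day 1 to day 2 on the log2 scale (adjusted p = 4.2e-11). The CONSTANS-like gene Aco006513 was up-regulated on days 1 and 2 (2.51 ± 0.22 and 2.2 ± 0.18) and not on day 3 (-0.27 ± 0.17), with a difference between days 2 and 3 of 2.46 ± 0.26 (adjusted p = 4.4e-08). Its level in the water controls alone was higher on day 3 than on day 2 by 1.83 ± 0.21 (adjusted p = 9.5e-06). The ERTF gene Aco008323 showed the same course, at 2.24 ± 0.20, 2.46 ± 0.17 and -0.02 ± 0.25. Of the 38 AP2/ERTF genes 21 were up-regulated on day 1, 15 on day 2 and 13 on day 3, and 9 were down-regulated on day 3 against 1 on day 2; the effect differed between days 2 and 3 in 18 and between days 2 and 1 in 1. FRUITFULL homolog Aco012428 was up-regulated on all 3 days, and its day 2 effect was lower than that of day 3 by a test whose fold rests on day 3 controls with no count. Aco004839 did not differ between day 2 and day 1 (0.71 ± 1.02, adjusted p = 0.84) or day 3 (1.39 ± 0.74, adjusted p = 0.22) within these errors.

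A few genes stood apart in how their effect moved between the days, and they were chosen after their values were seen. The acid phosphatase Aco001653 was up-regulated on day 1 (1.27 ± 0.26) and down-regulated on day 2 and day 3 (-3.09 ± 0.61), and the nitrate transporter Aco015264 was up-regulated on days 1 and 2 and down-regulated on day 3 (-2.12 ± 0.31). The water levels of both genes were lower on day 2 than on day 1, with log2 fold changes of -1.51 ± 0.34 and -1.35 ± 0.15 (adjusted p = 0.0034 and 2.3e-06). The splicing factor U2AF gene Aco000732 was at 13.0 ± 1.22 CPM (SD, n = 3) in the ethephon apices of day 1, at 34.4 ± 3.78 CPM on day 2 and at 30.3 ± 2.23 CPM on day 3, while its water level was 8.75 ± 0.76 CPM, 8.83 ± 2.21 CPM and 22.3 ± 1.49 CPM. Its control level was higher on day 3 than on day 2 (adjusted p = 3.0e-04), and of the 3 days only the day 2 effect was called. Cytokinin oxidase Aco023264 was down-regulated on day 2 alone of the 3 days, and its water level fell from 5.73 ± 3.71 CPM on day 2 to 1.19 ± 0.67 CPM on day 3 (adjusted p = 0.0039).

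**Figure D4:**
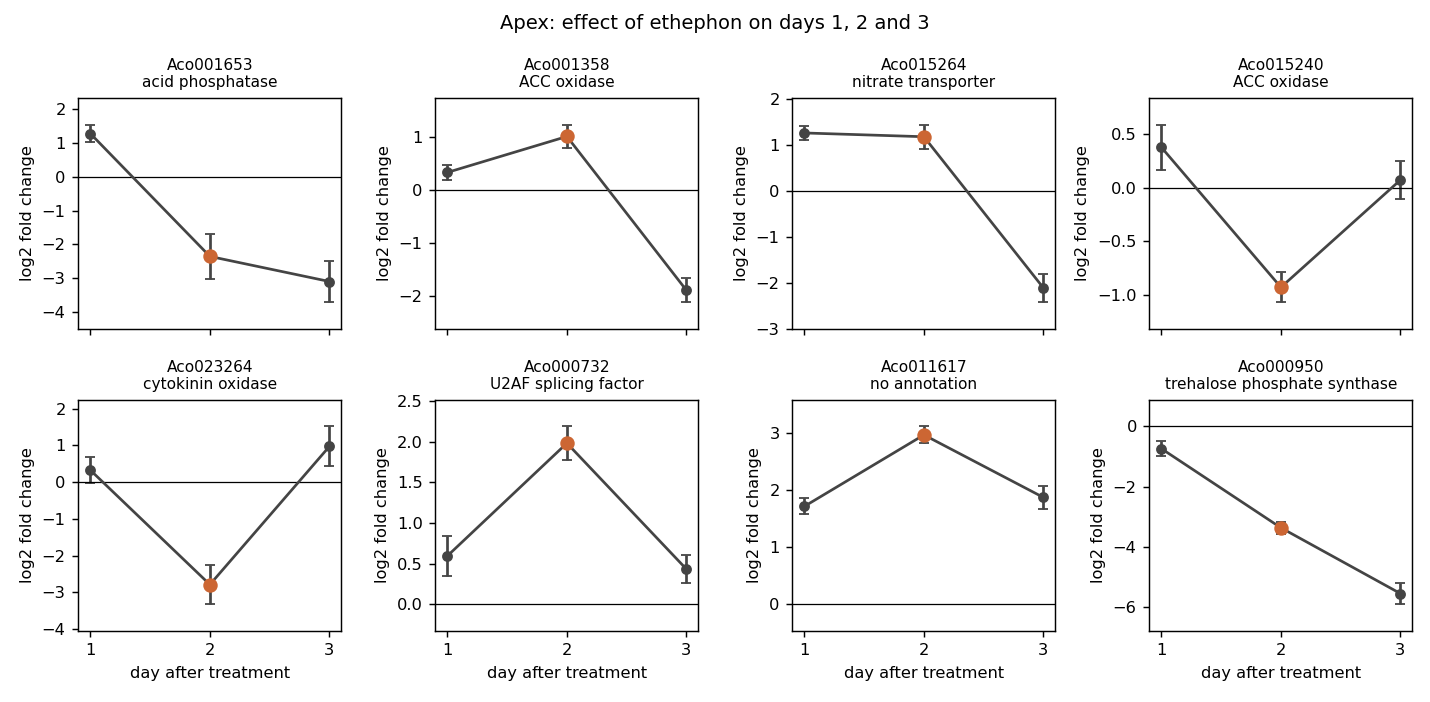
Log2 fold change, ethephon over water, of 8 genes on each of the first 3 days at the apex; points are the fitted values against each day's own water controls and error bars are SE with 3 libraries per group. Aco000950 lies lower on each later day, Aco015264 is above 0 on days 1 and 2 and below 0 on day 3, and the fold changes of Aco000732 and Aco011617 are largest on day 2. The water levels of Aco000732 and Aco011617 were higher on day 3 than on day 2.

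Levels of the day 2 water controls differed from those of the neighbouring days, which bears on the folds above. In the water controls alone 894 genes differed between day 2 and day 1 (4.16% of 21493; 257 higher on day 2, 1.2%, and 637 lower, 2.96%) and 1209 between day 3 and day 2 (5.62% of 21522; 723 higher on day 3, 3.36%, and 486 lower, 2.26%). Days and plants differ together here, since each sampling used other plants. The water level of the ACC oxidase gene Aco001358, for example, was 489.9 to 644.1 CPM on day 1, 79.7 to 108 CPM on day 2 and 78 to 180 CPM on day 3.

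At the leaf base of the same day fewer genes were called. There 199 genes were up-regulated and 129 down-regulated, and 73 of 2088 apex genes with higher expression were among the former (3.5%, and 36.7% of the leaf base genes). Unlike at the apex, some water and ethephon libraries of the leaf base shared a lane. The part of this unlike lane layout in the comparison of the tissues was not tested. The effect differed between the tissues in 2390 genes (10.5% of 22708; 1550 higher at the apex, 6.83%, and 840 lower, 3.7%), among them 1130 up-regulated apex genes with the higher effect at the apex and 529 down-regulated ones with the lower. Without replicate 2 of every group the count of 2390 genes was 913. The 1130 and 529 genes were chosen by their apex effect, which enters the tested difference, so its direction was largely set by that choice. Aco012428 was at 11.7 to 25.9 CPM in the treated apex, and its leaf base log2 fold change was -1.56 ± 0.75, and the difference passed the test (adjusted p = 9.8e-05). The influx transporter Aco031846 (-0.51 ± 0.49 at the leaf base), the ERTF gene Aco004208 (0.65 ± 0.32) and trehalose phosphate synthase Aco000950 (-0.24 ± 0.23) differed between tissues by 3.91 ± 0.50, 1.83 ± 0.37 and -3.10 ± 0.35. The CONSTANS-like gene Aco006513 (0.57 ± 0.25) differed by 1.63 ± 0.30 (adjusted p = 0.0011). For KNOTTED-1-like Aco015873 (0.55 ± 0.48) the difference of 0.93 ± 0.49 did not pass (adjusted p = 0.23). In ACC oxidase Aco001358 and in the group X ERTF gene Aco001318, which rose at the leaf base as well (2.71 ± 0.49), no difference was called.

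**Figure D5:**
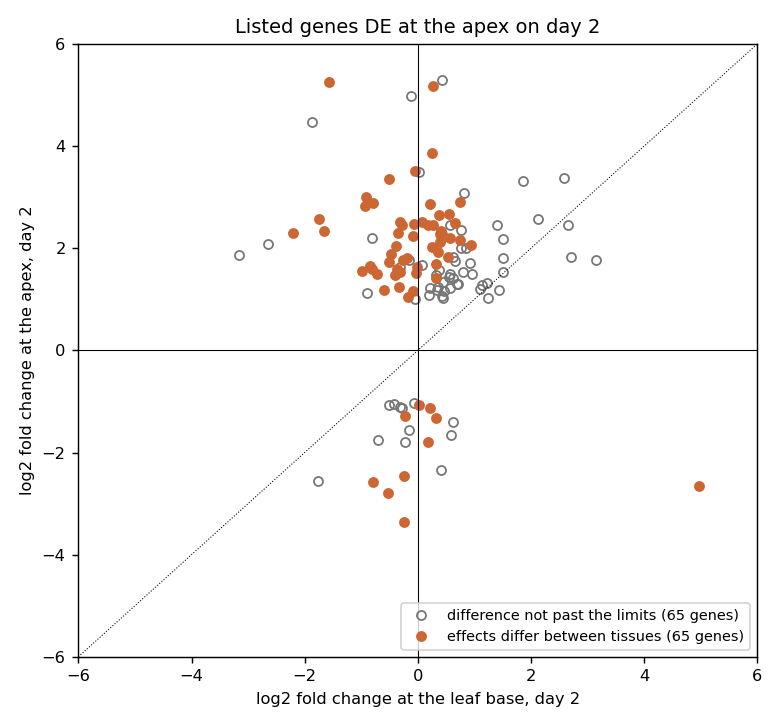
Log2 fold change on day 2 at the leaf base (x axis) and at the apex (y axis) for 130 listed genes that were DE at the apex and tested in both tissues; points are genes, the diagonal marks equal effects, and filled points are the 65 genes whose effects differed between the tissues. Most points lie near 0 on the x axis. The genes were chosen by their apex call, so their distance from 0 on the y axis follows from that choice.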

How the data were processed

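RNA of the apex was sequenced from stranded mRNA libraries (HiSeq4000). Per the labels and the methods, the authors trimmed reads (Trimmomatic 0.36, FastQC 0.10.1), aligned them with HISAT2 2.0.5 to Acomosus_321_v3 and deposited raw counts per gene over exons (featureCounts 1.6.0). Per the file headers, strand was not used and multi-mapping reads were counted; of 27024 genes 3167 share exon positions with another gene. RNA extraction is given as TRIzol in the labels and as an RNeasy kit in the methods.

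From these, log2 fold changes were estimated with edgeR 4.0.16 (R 4.3.3, limma 3.58.1; TMM scaling, quasi-likelihood F-test, Benjamini-Hochberg adjustment over all genes with a count). The SE of a log2 fold change is its size divided by the square root of the F statistic. This is an approximation, and a poor one where counts are few. In all, 14 comparisons were fitted, 6 of them under alternatives. Replicate libraries of each group differed by more than sampling noise. With 3 libraries against 3, an exact permutation test of a single gene cannot go below p = 0.1. The scripts were tested on simulated data. The gene lists, drawn up here from genes the study names, and the members were chosen with earlier results of these data known. Picked for naming were, per list, up to 4 DE genes with the largest fold change. For a pathway step with none, the gene with the smallest adjusted p was picked. Of genes without annotation, the 2 with the smallest adjusted p per direction were picked. Some genes picked from the keyword groups at the end of the text are not printed. Other genes were named after their values were seen. Alternatives included DESeq2 1.42.0, other scalings, filters and controls, and leaving out each library. Counting intervals and the limit of 3 counts cover counting error only.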

Additional observations from a re-analysis of the deposited data

Results flagged for a closer look

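The effect of ethephon on day 2 differed from that on day 1 in 624 genes and from that on day 3 in 2460 genes, and the effect at the apex differed from that at the leaf base in 2390 genes, each by an interaction term tested in edgeR (quasi-likelihood, p adjusted over all genes).

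The following genes were picked out because the test of the difference between samplings passed and either the calls were opposite or the effect on day 2 stood apart from both neighbouring days; all were chosen after their values were seen. The acid phosphatase gene Aco001653 had a day 2 effect 3.68 lower on the log2 scale than its day 1 effect (-3.68 ± 0.66, adjusted p = 6.9e-04), and its exons overlap another gene. The ACC oxidase gene Aco001358 had a day 2 effect higher than that of day 3 by 2.87 ± 0.36 (adjusted p = 8.1e-07), and the nitrate transporter gene Aco015264 by 3.27 ± 0.45 (adjusted p = 4.2e-06). Exons of Aco001358 also overlap another gene. For the ACC oxidase gene Aco015240 the difference was -1.34 ± 0.29 against day 1 (adjusted p = 0.0046) and -1.02 ± 0.25 against day 3 (adjusted p = 0.0034), the latter lost without replicate 2 of each group (-0.72). Its water level was lower on day 3 than on day 2, with a log2 fold change of -1.91 ± 0.19 (adjusted p = 3.2e-06). The mean treated level of Aco015240 was 434.7 CPM on day 2 and 238.5 CPM on day 3. The cytokinin oxidase gene Aco023264 differed by -3.15 ± 0.67 from day 1 (adjusted p = 0.0037) and by -3.79 ± 0.77 from day 3 (adjusted p = 6.3e-04), the former lost without replicate 2 (-2.35, adjusted p = 0.055).

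The U2AF splicing factor gene Aco000732 differed by 1.36 ± 0.32 from day 1 (adjusted p = 0.0077) and by 1.53 ± 0.26 from day 3 (adjusted p = 8.4e-05), the former lost without replicate 3 (1.11, adjusted p = 0.13). Aco011617, with no annotation in hand, differed by 1.22 ± 0.20 from day 1 (adjusted p = 2.9e-04) and by 1.08 ± 0.27 from day 3 (adjusted p = 0.0046), the former falling under the 2-fold limit without replicate 2 (0.89) and the latter without replicate 1 (0.96) or 3 (0.99). Its water level was higher on day 3 than on day 2, with a log2 fold change of 1.14 ± 0.19 (adjusted p = 3.7e-04). The mean treated level of Aco011617 was 603.9 CPM on day 2 and 639.4 CPM on day 3. The trehalose phosphate synthase gene Aco000950 differed by -2.65 ± 0.40 from day 1 (adjusted p = 9.6e-05) and by 2.16 ± 0.50 from day 3 (adjusted p = 0.0021). For the stress-responsive gene Aco001681 the apex effect was lower than the leaf base effect by 7.62 on the log2 scale (-7.62 ± 1.44, adjusted p = 0.0013), and its 3 treated leaf base libraries stood at 4.71, 7.39 and 76.3 CPM, so that 1 library held most of that level.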

How the results depend on the processing

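The count of 3231 DE genes on day 2 became 8061 without a fold limit and 696 above 2 on the log2 scale, and was 3290 by edgeR's exact test, 2838 by DESeq2, 3244 with RLE size factors and 3119 after a filter of 1 CPM in 3 libraries. Leaving out each library in turn gave 2838 to 3447. Without a fold limit the interaction counts were 1222 against day 1 and 4060 against day 3, and the water-control counts 3249 between days 2 and 1 and 4129 between days 3 and 2. Leaving out a replicate number gave 578 to 1094 genes against day 1 (1094 without replicate 1) and 913 to 3115 between tissues (913 without replicate 2), and it gave 2044 to 2721, 640 to 792 and 847 to 985 in the comparisons with day 3 and of the water controls. Of 144 DE genes picked for naming, some of them not printed here, 108 kept their call whichever library was left out. Under every alternative other than the limit of 2 on the log2 scale, 85 kept it. With the water libraries of days 1 and 3 as controls, 42 lost their call with the sign unchanged.

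With the water libraries of days 1 and 3 as controls, the log2 fold change took the other sign in Aco001358 (-0.59) and Aco000376 (-0.78), and, among genes not called, in Aco000979 (0.51), Aco003526 (-0.51), Aco017730 (0.089) and Aco007857 (-0.42); leaving out each library moved Aco000979 between -0.24 and 0.0065, the latter without water replicate 3. The causes were not tested. The field plot had 3 replications, each with both treatments, but replicate numbers were not treated as pairs: the labels tie no number to a replication, the deviations of same-numbered libraries correlated at -0.10, -0.10 and -0.01, and no library correlated best with its own number. A replicate block gave 3084 DE genes on day 2, 637 against day 1, 2459 against day 3, 2206 between tissues and 881 and 1222 in the water controls, and of the named DE genes Aco001358 (log2 fold change 0.92), Aco026644 (adjusted p = 0.063), Aco002115 (0.052), Aco010143 (0.053), Aco026964 (0.062) and Aco000942 (0.078) were not called on day 2 with it. A fit with the lane as a term was not run, because with 11 lanes the treatment contrast could not be estimated. Genes near 1 CPM rest on a few counts per library, and there only large differences could pass.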

Other observations

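Annotation was in hand for a run of 858 genes in the order of their gene numbers, 13 of which are also in the gene lists above. Of these 844 were tested, 90 (10.7%) were up-regulated and 42 (4.98%) down-regulated, against 9.76% and 5.34% of all genes tested, with a median log2 fold change of 0.03. They were grouped by keywords in their annotation, and the groups are small. Pentatricopeptide repeat genes, which process RNA in organelles, were up-regulated in 5 of 24 cases (20.8%) with none down-regulated, led by Aco000746 at 3.54, 3.07 and 2.49 CPM in the water libraries and 11.7, 15.5 and 17.7 CPM in the ethephon libraries (log2 fold change 2.32 ± 0.29) and Aco000229 at 4.09, 5.31 and 4.15 CPM in the water libraries and 17.2, 23.4 and 16.2 CPM in the ethephon libraries (2.10 ± 0.25). The others were Aco000520 (2.04), Aco000719 (1.54) and Aco000260 (1.43). With the water libraries of days 1 and 3 as controls, Aco000229, Aco000520 and Aco000260 were no longer called.

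Of 27 genes of DNA replication, repair and cell division none was up-regulated and 3 (11.1%) were down-regulated. These were the transcription factor DP gene Aco000007, at 25.9, 23.8 and 26.6 CPM in the water libraries and 6.98, 12.8 and 12.6 CPM in the ethephon libraries (-1.19 ± 0.22), the E2F gene Aco000996, at 59.7, 49.5 and 52.9 CPM in the water libraries and 23.4, 26.2 and 27.4 CPM in the ethephon libraries (-1.05 ± 0.14), and the microtubule-associated SPIRAL1-like gene Aco000115 (-1.13 ± 0.12). E2F and DP proteins act as partners at the entry into DNA synthesis. All 3 lost their calls with the water libraries of days 1 and 3 as controls, and Aco000007 and Aco000996 also without ethephon replicate 1 and without water replicate 1, respectively. Of 15 chaperones none was called, with a median log2 fold change of 0.40. Of 11 histone and chromatin genes 2 (18.2%) were up-regulated, the histone H1 gene Aco000204 (1.6), already counted in the histone list above, and the bromodomain gene Aco000751 (1.27).

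Secondary metabolism held 5 up-regulated (25%) and 1 down-regulated of 20 genes. The glycosyltransferase gene Aco000907 was at 6.54, 7.54 and 6.64 CPM in the water libraries and 34.4, 46.9 and 30.8 CPM in the ethephon libraries (2.47 ± 0.21) and beta glucosidase Aco000756 at 27.0, 51.1 and 59.5 CPM in the water libraries and 181, 135 and 197 CPM in the ethephon libraries (1.92 ± 0.20), while beta glucosidase Aco000758 fell (-1.05). The caffeoyl-CoA O-methyltransferase genes Aco000839, Aco000946 and Aco000942, of lignin synthesis, had a log2 fold change of 2.27 and pooled ratios of 5.12 (95% exact counting interval 2.43 to 12.4) and 3.03 (95% exact counting interval 1.44 to 7.13), and reads that fit more than 1 of them could have been counted in each. In Aco000839 ethephon replicate 2, at 1.25 CPM, lay inside the water range. Aco000942 lost its call under most alternatives, and so did Aco000839 without water replicate 1, water replicate 2 or ethephon replicate 3 (adjusted p = 0.051 to 0.083). Aco000756, Aco000758 and Aco000946 were no longer called with the water libraries of days 1 and 3 as controls. Of 39 protein kinases 7 (17.9%) were up-regulated, among them the receptor-like kinases Aco000349 at 168, 167 and 186 CPM in the water libraries and 427, 554 and 434 CPM in the ethephon libraries (1.47 ± 0.12) and Aco000777 (1.5 ± 0.19), and 2 down-regulated, Aco000041 (-1.43) and Aco000259 (-1.06). Of 41 ubiquitin-related genes 4 were up-regulated, 9.76% as over all genes, led by the U-box gene Aco000983 at 1.36, 0.279 and 1.11 CPM in the water libraries and 10.5, 9.15 and 7.69 CPM in the ethephon libraries (3.29 ± 0.42), and 3 down-regulated, among them the RING-H2 gene Aco000960 (-1.41). Of 99 genes with a transcription factor family 14 (14.1%) were up-regulated, among them the WD40 gene Aco000384 at 8.45, 7.26 and 9.14 CPM in the water libraries and 44.4, 46.2 and 46.9 CPM in the ethephon libraries (2.49 ± 0.18) and the homeobox gene Aco000939 (2.24 ± 0.18), and 4 down-regulated. Ribosomal protein genes had 2 up-regulated of 18 (11.1%, near the share over all genes), Aco000025 (1.27) and Aco000524 (1.05), cell wall genes 1 up-regulated, Aco000966 (1.21), and 1 down-regulated, Aco000703 (-1.08), of 20, and plastid genes 2 up-regulated of 12, Aco000788 (2.06) and the low Aco000533 (pooled ratio 3.69 (95% exact counting interval 1.62 to 9.84)). Leaving out 1 library ended the calls of Aco000524 (without ethephon replicate 3), Aco000259 and Aco000758 (without water replicate 1 or ethephon replicate 2), Aco000533 (without water replicate 1, water replicate 2 or ethephon replicate 2) and Aco000703 (without water replicate 1, water replicate 3 or ethephon replicate 1). With the water libraries of days 1 and 3 as controls Aco000025, Aco000041, Aco000259, Aco000524, Aco000751, Aco000960 and Aco000966 lost theirs.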
